A study of Rattus norvegicus with 23 samples.

Results

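The matrix metalloproteinases (MMPs), the ADAMTS proteases and the tissue inhibitors of metalloproteinases (TIMPs) were examined in 2 rat kidney cell lines exposed to an acidic medium. Members were all protein-coding genes of the count table whose symbol was Mmp, Adamts or Timp followed by a number (for Timp, 1 to 4), which gave 45 of 30452 genes, 23 of them Mmp, 19 Adamts and 3 Timp genes. Of these 45 members, 28 passed the filter on low counts and were tested, 13 Mmp, 13 Adamts and 2 Timp genes. The other 17 were too low for a test. A member that passed through the samples in which it is high had to be present in those samples, so counts over the 28 are no statement on all 45.

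NRK-52E cells are a tubular epithelial line and NRK-49F cells a fibroblast line, both from normal rat kidney and labelled NRKE and NRKF. After 24 h in serum-free medium, both lines spent 48 h in medium of pH 7.4 (control) or in medium brought to pH 6.0 with HCl. There were n = 6 samples for each pH of NRK-52E cells, n = 6 for NRK-49F cells at pH 7.4 and n = 5 for NRK-49F cells at pH 6.0. The labels place each line in 2 sample groups, 1 and 3 for NRK-52E and 4 and 6 for NRK-49F cells, without saying what a sample group is, and each of them holds both pH values. Each sample group has n = 3 samples per pH, except group 4 with n = 2 at pH 6.0. Fits of a single sample group therefore rest on few samples. All cells were unmodified established lines grown alone, so no group carries a transgene or a second agent. The study calls its samples biological, but neither it nor the labels say whether those of a group were separate cultures, so p-values measure the spread between these samples, part of which may be technical.

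MMPs and ADAMTS proteases are zinc-dependent enzymes that are made as inactive proenzymes and that cut collagens, proteoglycans and other proteins of the extracellular matrix once their propeptide is removed. TIMPs bind the active site of these enzymes and block it. In the kidney, the balance between both is known for its part in turnover of the tubular basement membrane and in interstitial scarring, and fibroblasts are a known source of several MMPs.

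Total counts per sample ranged from 16412564 to 34250535. Levels are given as FPM, the counts of a gene scaled to a common library size with TMM factors, and 3 counts, the smallest level regarded as detected, correspond to between 0.0839 and 0.203 FPM in single samples. Transcript length was not used, so levels of different genes are not compared. In bulk RNA, fewer cells that use a gene and less of its RNA per cell cannot be told apart. As for the labels, NRK-52E samples held at most 0.349 FPM of Cdh1 and at most 0.0455 FPM of Epcam, both defining epithelial genes, and Krt18, Cldn3 and Cldn4 were also at or near 0, whereas Krt7 (2.50 to 32.4 FPM) was present and at most 2.24 FPM in NRK-49F cells. Krt8 did not mark the epithelial line, with 441 to 651 FPM in NRK-52E and 667 to 1206 FPM in NRK-49F cells at pH 7.4. NRK-49F samples held 179 to 380.4 FPM of Pdgfra and 240.2 to 493 FPM of Vcam1, both fibroblast genes, and 3185 to 6510 FPM of Col1a1, of which NRK-52E samples held at most 120.3 FPM. Other genes of the fibroblast list went against the labels, since Thy1 was at or near 0 in both lines and Col3a1 read 4678 to 8037 FPM in NRK-52E and 1108 to 1415 FPM in NRK-49F cells at pH 7.4. The myofibroblast genes Acta2 (177 to 374 FPM) and Tagln (331 to 684 FPM) were also high in NRK-52E cells at pH 7.4, beside at most 8.71 and 12.5 FPM in NRK-49F cells. Of the leukocyte markers, Ptprc, Adgre1 and Itgam stayed at or below 0.200 FPM in all samples, but Cd68 read 21.6 to 33 FPM in NRK-49F cells at pH 7.4 and 217 to 251 FPM at pH 6.0.

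Of the genes described here, 10 Mmp genes lie side by side on chromosome 8 in the order Mmp13, Mmp12, Mmp1b, Mmp3, Mmp1, Mmp10, Mmp8, Mmp27, Mmp20 and Mmp7 (RefSeq, build GRCr8, chr8:12782829-13140761), with 0 other protein-coding genes between them. The 3 of these genes that could be tested, Mmp3, Mmp10 and Mmp13, all rose at pH 6.0 in NRK-49F cells, so their promoters are shown. RefSeq held a promoter window, from 250 bases before to 50 bases after the transcription start, for 34 of the 45 members. The 11 members without a window were not searched. They were Mmp2, Mmp9, Mmp14, Mmp16, Mmp17, Mmp19, Adamts5, Adamts8, Adamts15, Adamts16 and Adamts19, of which Mmp2, Mmp9 and Mmp19 also rose in NRK-49F cells. Each window was searched for the AP-1 motif (TGAGTCA or TGACTCA, each the other strand's reading of the other) and for TATAAA on the gene's strand. An AP-1 motif was found in 6 of the 34 windows and in 5.04% of the 27457 genes of the whole table, and all 6 belong to this row of genes. The same 6 windows also held TATAAA, a pair found in 0.652% of all genes. A match of letters is a description and not a bound site. The bases from 110 to 11 before the start of these 6 genes read as follows, on the plus strand, with both motifs in capitals.

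Mmp13 (chr8:12782719-12782818): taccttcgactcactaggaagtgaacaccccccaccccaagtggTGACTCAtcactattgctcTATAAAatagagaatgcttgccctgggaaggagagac
Mmp12 (chr8:12866542-12866641): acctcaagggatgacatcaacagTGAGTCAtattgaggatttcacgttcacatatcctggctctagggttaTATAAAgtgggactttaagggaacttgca
Mmp3 (chr8:12925171-12925270): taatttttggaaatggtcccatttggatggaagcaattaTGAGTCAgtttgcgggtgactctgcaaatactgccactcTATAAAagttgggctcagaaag
Mmp1 (chr8:12943343-12943442): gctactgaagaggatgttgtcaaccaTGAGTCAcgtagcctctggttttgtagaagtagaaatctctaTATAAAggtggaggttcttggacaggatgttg
Mmp10 (chr8:12974597-12974696): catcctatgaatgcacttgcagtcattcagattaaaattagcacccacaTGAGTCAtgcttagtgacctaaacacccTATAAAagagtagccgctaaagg
Mmp7 (chr8:13132933-13133032): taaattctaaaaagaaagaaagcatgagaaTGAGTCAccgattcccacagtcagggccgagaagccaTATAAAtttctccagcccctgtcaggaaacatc

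The AP-1 motif began 61 bases before the start in Mmp10, 66 in Mmp13, 71 in Mmp3, 80 in Mmp7, 84 in Mmp1 and 87 in Mmp12. The nearest TATAAA began 32 bases before the start in Mmp3 and 33 in Mmp10. Among the 4 remaining genes of the row, Mmp20 held TATAAA alone at 59 bases, and Mmp1b, Mmp8 and Mmp27 held neither string in this window.

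**Figure D1:**
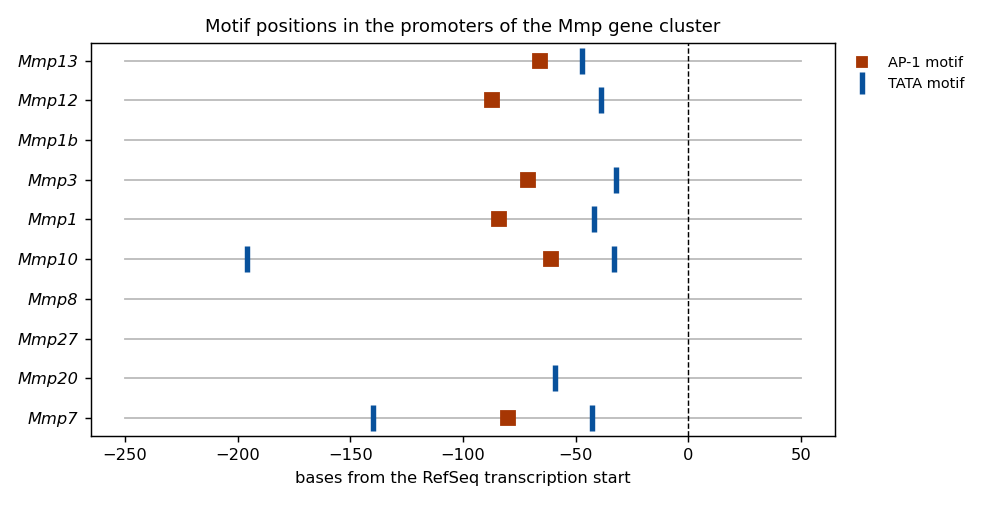
Positions of the AP-1 motif (squares) and of TATAAA (bars) in the RefSeq promoter windows of the 10 neighbouring Mmp genes, in bases from the transcription start (x axis). The 6 AP-1 motifs lie between 61 and 87 bases before the start, each with a TATAAA nearer to the start.

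As to the response, NRK-49F cells had 7 members higher at pH 6.0, Mmp2, Mmp3, Mmp9, Mmp10, Mmp13, Mmp19 and Adamts4, and 6 lower, Mmp16, Mmp24, Mmp28, Adamts2, Adamts5 and Adamts9 (edgeR's quasi-likelihood test, Benjamini-Hochberg adjusted p under 0.05). The other 15 tested members were not called. Of all 14777 genes tested, 14.5% were higher and 14.4% lower in these cells, against 7 and 6 of 28 members. With the sample group as a term, 8 members were higher, beside 16.6% of all genes, and 9 lower, beside 16.7%, and the 4 that were added were Adamts7 (higher), Mmp11, Adamts6 and Adamts10 (lower). NRK-52E cells had 3 members higher, Adamts13, Adamts14 and Timp3, and 16 lower, Mmp2, Mmp3, Mmp11, Mmp14, Mmp16, Mmp19, Mmp24, Mmp28, Adamts2, Adamts4, Adamts6, Adamts7, Adamts9, Adamts12, Adamts17 and Timp1. The background in this line was 24.7% higher and 36.6% lower. The median log2 fold change of the 28 members was −1.25 in NRK-52E cells, beside −0.12 over all genes tested. It was −1.16 with Mmp3, Mmp16 and Adamts4 set to their bound at the detection limit. Mmp13 (−1.20), Adamts5 (−1.86), Adamts9 (−5.10) and Adamts14 (2.49) had means under the floor at both pH values. They have no bound and kept these fitted values, so both medians include values that cannot be read as folds. In NRK-49F cells the median was −0.03, beside 0.00 over all genes.

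The change at pH 6.0 differed between the lines in 14 of 28 members, beside 41.4% of all genes tested. In 13 of them, Mmp2, Mmp3, Mmp11, Mmp16, Mmp19, Mmp24, Adamts2, Adamts4, Adamts6, Adamts7, Adamts12, Adamts17 and Timp1, the change in NRK-52E cells was the more negative. Adamts14 was the exception, and its call was lost in 15 of 23 fits that left out 1 sample. At pH 7.4, 19 members were higher in NRK-49F than in NRK-52E cells and 5 were lower (Mmp15, Mmp24, Mmp28, Adamts3 and Adamts10), beside 33.9% and 35% of all genes. The remaining 4, Mmp11, Mmp23, Adamts17 and Timp1, were not called, though Adamts17 was with the sample group as a term (lower, adjusted p = 0.0268). With NRK-52E samples alone 18 members passed the filter, and with NRK-49F samples alone 28. Members that entered the joint test only through NRK-49F samples had to be higher there. The 19 members are therefore partly a result of the filter and no test of the family.

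**Figure D2:**
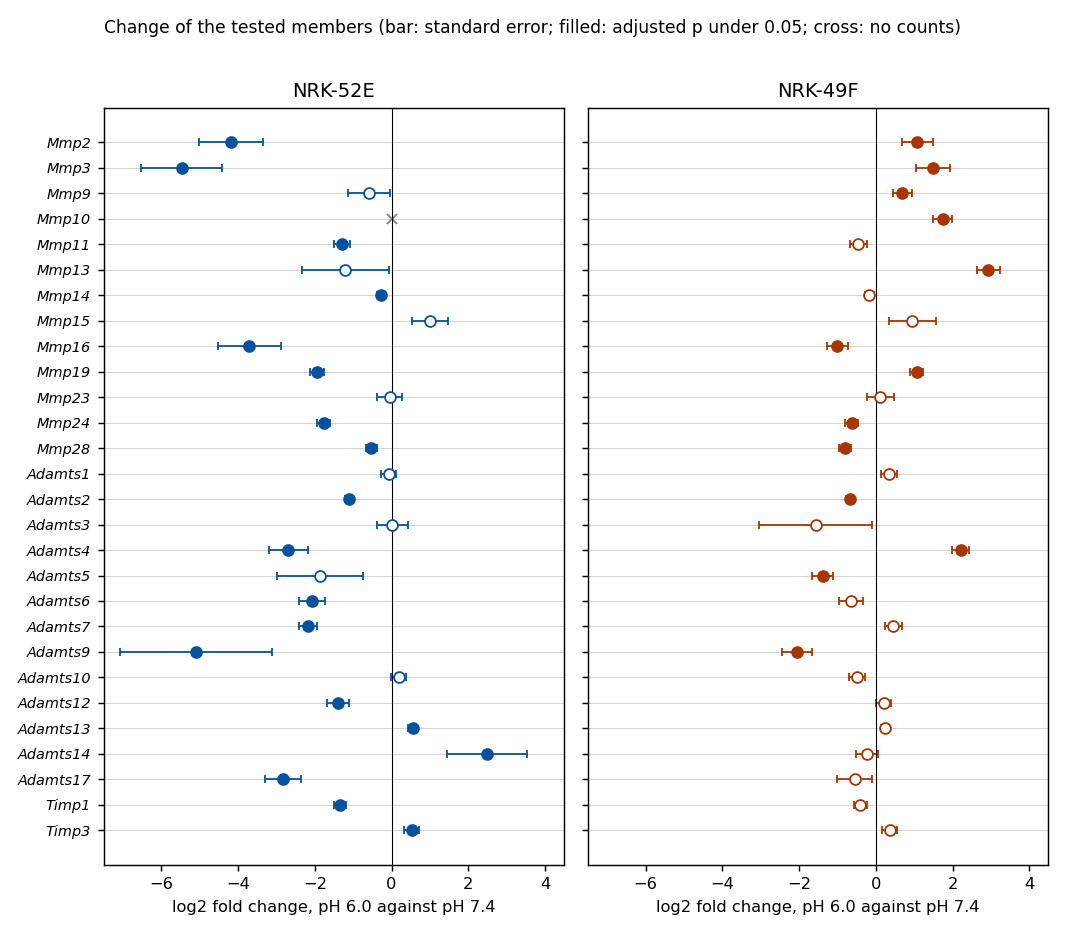
Log2 fold change at pH 6.0 against pH 7.4 (x axis) of the 28 tested members in NRK-52E cells (left) and NRK-49F cells (right), with standard errors as bars. Filled points are called. Most points of NRK-52E cells lie left of 0, while in NRK-49F cells Mmp13 (2.94) and Adamts4 (2.21) lie farthest to the right and Adamts9 (−2.05) farthest to the left.

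Part of the falls in NRK-52E cells concerned genes at the detection limit. Pdgfra and Vcam1 together, genes of high level in NRK-49F cells, read 1.51% of the NRK-49F mean at the same pH in sample A021, 0.521% in A022 and 0.512% in A033, all NRK-52E samples at pH 7.4. In the other 3 samples at pH 7.4 this share was 0.189% to 0.215%, and at pH 6.0 it was at most 0.0150%. Mmp2 and Mmp3 were high in the same 3 samples. Mmp2 read 6.02, 1.88 and 2.69 FPM in A021, A022 and A033, and 0 to 0.545 FPM in the other 3. Whether RNA of the other line has a part in these values was not tested. Without these 3 samples, an alternative added after the data were seen, 32 members and 14982 genes were tested. NRK-52E cells then had 1 member higher and 12 lower, beside 20.8% and 30% of all genes, and the change differed between the lines in 9 members, beside 34.3%. The fall of Mmp2 (adjusted p = 0.278) and that of Mmp3 (adjusted p = 0.296) were then no longer called in NRK-52E cells, and Adamts9 had no counts left. The difference between the lines was no longer called for Mmp3, Mmp11, Mmp16, Adamts6 and Adamts14. On the log2 scale, that of Mmp3 went from −6.96 to −2.87 (adjusted p = 0.0584) and that of Mmp2 from −5.27 to −2.02 (adjusted p = 0.0411).

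**Figure D3:**
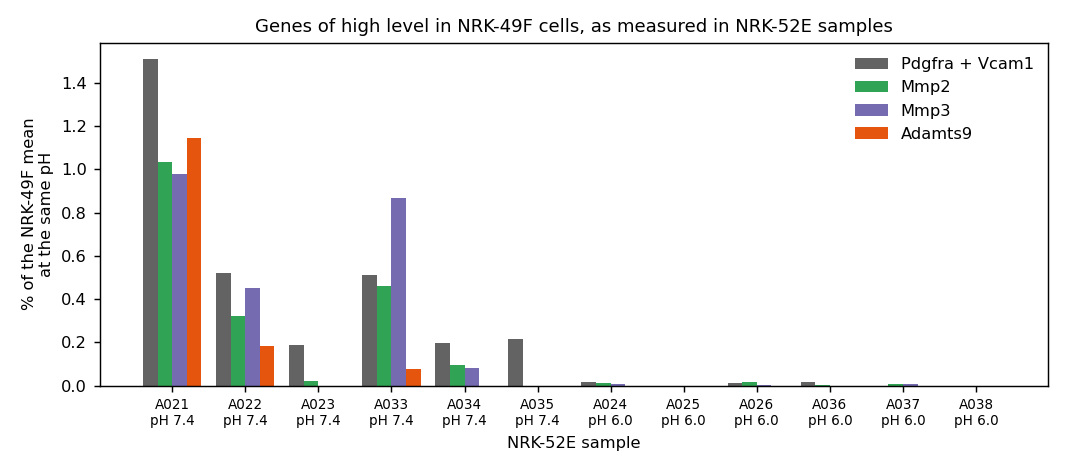
Level of Pdgfra plus Vcam1, Mmp2, Mmp3 and Adamts9 in each NRK-52E sample (x axis), as a percentage of the mean of NRK-49F cells at the same pH (y axis). Samples A021, A022 and A033 stand out in Pdgfra plus Vcam1 (1.51%, 0.521% and 0.512%) and in Mmp2 and Mmp3, and the samples at pH 6.0 are near 0 throughout.

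Among the collagenases, which cut the triple helix of fibrillar collagens, only Mmp13 (ENSRNOG00000008478, chromosome 8) could be tested. In NRK-49F cells it read from 0.735 to 1.80 FPM at pH 7.4, with a median of 1.24 FPM. At pH 6.0 the 5 samples read 6.12, 4.76, 13.6, 13.2 and 9.78 FPM, so that both pH values were apart. The mean was 7.61-fold higher at pH 6.0 (log2 fold change 2.94 ± 0.30 SE, adjusted p = 5.92e-07). The lower 2 of the 5 samples were those of sample group 4, and the rise was called in each sample group alone (log2 fold change 2.36 in group 4 and 3.09 in group 6). NRK-52E cells held 1 count of Mmp13 in 1 of 12 samples, and at pH 6.0, where they held 0 counts, the level in NRK-49F cells was at least 64.6-fold higher, with 3 counts per library as the floor. Mmp1 and Mmp1b, the rodent interstitial collagenases, did not exceed 8 counts in any sample, and Mmp8, the neutrophil collagenase, had 0 counts throughout.

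The gelatinases cut denatured collagen and the type IV collagen of basement membranes. Mmp2 (ENSRNOG00000016695, chromosome 19) ranged from 527 to 647 FPM in NRK-49F cells at pH 7.4, with a median of 581 FPM. At pH 6.0 the samples read 1219.9, 1115, 1300.2, 1299 and 1238 FPM, all above the control samples. This is a 2.12-fold higher mean (log2 fold change 1.08 ± 0.39 SE, adjusted p = 0.0407). The spread in this test is shared with NRK-52E samples, in which Mmp2 read 0 to 6.02 FPM, and the call was lost in 10 of 23 fits that left out 1 sample (adjusted p up to 0.0756). With NRK-49F samples alone, the adjusted p was 3.40e-07 at a log2 fold change of 1.08. DESeq2 on all samples, alone or required together with edgeR, called 5 members higher in NRK-49F cells instead of 7. Of the calls lost, only that of Mmp3 had a DESeq2 adjusted p, which lay above the threshold. For the other lost call DESeq2 gave no adjusted p, so it is not a failed test. DESeq2 gave no adjusted p for Mmp2 in NRK-52E cells. The rise of Mmp2 in NRK-49F cells is not counted here as called by both tools.

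Mmp9, the other gelatinase, moved less. It read 10.7 to 19.4 FPM (median 14.6 FPM) in NRK-49F cells at pH 7.4 and 13.8, 19.8, 26, 27.4 and 31.9 FPM at pH 6.0, so that both pH values overlapped (log2 fold change 0.69 ± 0.24 SE, adjusted p = 0.0374). This call was lost in 7 of the 23 fits without 1 sample, with adjusted p up to 0.113, and in sample group 4 alone (adjusted p = 0.241). NRK-52E cells held at most 0.592 FPM of Mmp9.

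The stromelysins, Mmp3 and Mmp10, have a broad range of matrix substrates and also cut the propeptide of other MMPs. Mmp3 (ENSRNOG00000032626, chromosome 8) read 404 to 639.8 FPM in NRK-49F cells at pH 7.4, with a median of 557 FPM. At pH 6.0 the samples read 1165, 1175, 1854, 2001 and 1494 FPM, again with no overlap. The mean was 2.81-fold higher (log2 fold change 1.49 ± 0.44 SE, adjusted p = 0.0117, or 1.16e-05 with NRK-49F samples alone). DESeq2 on all samples gave nearly the same log2 fold change, 1.48, with an adjusted p of 0.207. Mmp2 and Mmp3 together took 0.0874% to 0.115% of all counts in NRK-49F samples at pH 7.4 and 0.192% to 0.294% at pH 6.0.

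Mmp10 had 0 counts in all NRK-52E samples. NRK-49F samples read 0.845 to 2.26 FPM at pH 7.4 (median 1.39 FPM) and 4.48, 4.39, 4.86, 4.66 and 5.39 FPM at pH 6.0. The 3.35-fold higher mean passed the test (log2 fold change 1.74 ± 0.25 SE, adjusted p = 0.000117), and the level was at least 10.3-fold above the floor of NRK-52E cells at pH 7.4 and at least 32.4-fold at pH 6.0. Mmp3 and Mmp10 are close paralogs and multi-mapping reads were counted. Mmp10 counts amounted to 0.157% to 0.401% of those of Mmp3 over the 11 NRK-49F samples, and how many reads both genes share was not tested.

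Mmp11, or stromelysin-3, which furin activates before secretion, behaved otherwise. It fell in NRK-52E cells from 60.9 to 76.5 FPM (median 67.3 FPM) to 13.8 to 42.1 FPM (median 28.4 FPM), with no overlap (log2 fold change −1.29 ± 0.22 SE, adjusted p = 2.03e-05). NRK-49F cells read 81.1 to 91.3 FPM at pH 7.4 and 39.8, 55.9, 67.6, 79.6 and 69.9 FPM at pH 6.0, with no overlap, which did not pass the test (log2 fold change −0.46, adjusted p = 0.133). This fall was called with the sample group as a term (adjusted p = 0.0282), with NRK-49F samples alone (adjusted p = 0.0176) and in sample group 4 alone (log2 fold change −0.86, adjusted p = 0.0362), but not in group 6 alone (log2 fold change −0.25, adjusted p = 0.119). The difference between the lines was −0.83 on the log2 scale (adjusted p = 0.0357), and it was lost without the 3 NRK-52E samples named above (adjusted p = 0.0671) and in 10 of 23 fits without 1 sample.

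**Figure D4:**
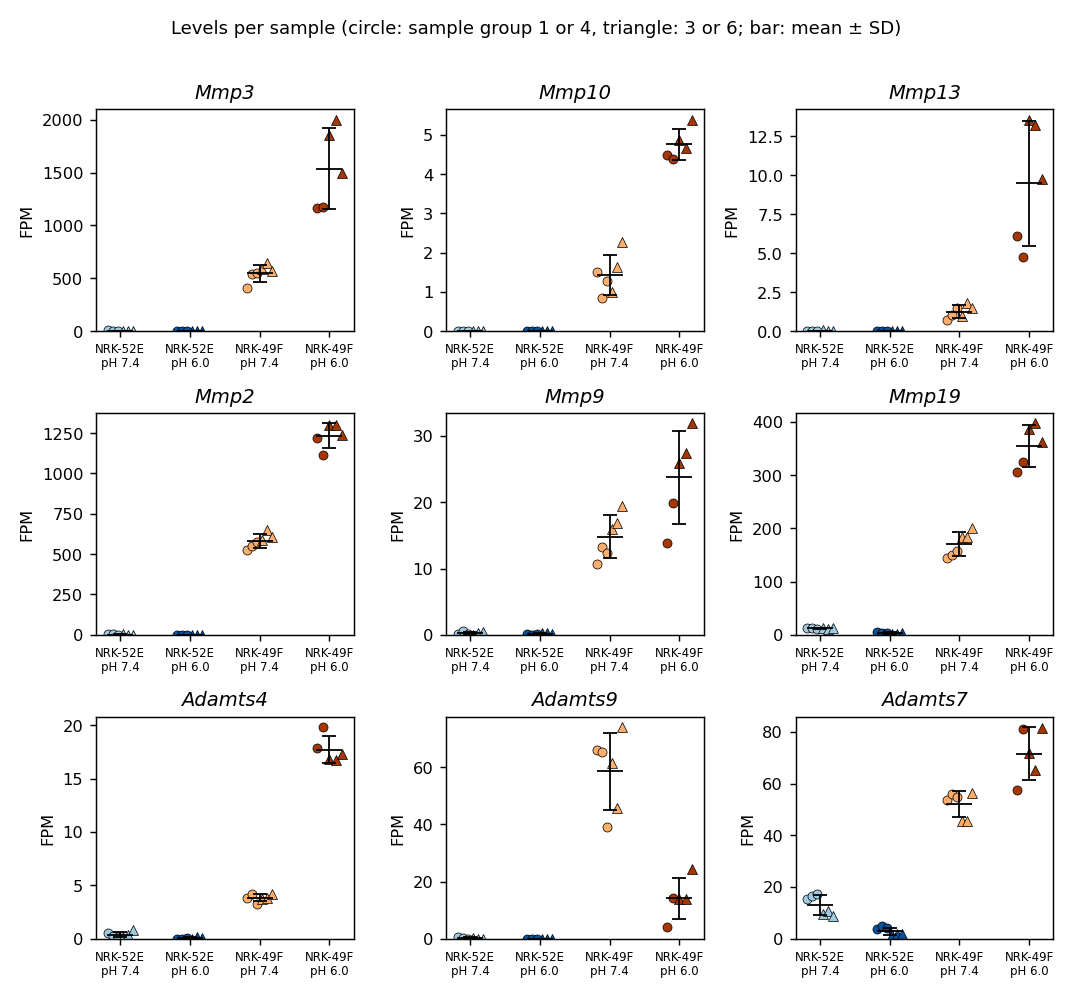
Levels of 9 members in FPM (y axis, linear, a scale of its own for each gene) in each sample of NRK-52E and NRK-49F cells at pH 7.4 and pH 6.0, with the mean ± SD. Circles are sample groups 1 and 4, triangles 3 and 6. Mmp3, Mmp10, Mmp13, Mmp2, Mmp19, Adamts4 and Adamts7 are higher in all NRK-49F samples at pH 6.0 than in any at pH 7.4, and Adamts9 is lower.

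The other secreted MMPs include Mmp19, found in many tissues, and Mmp28, or epilysin, known from epithelia. Mmp19 (ENSRNOG00000006778, chromosome 7) moved in opposite directions in both lines, and both changes passed the test. NRK-52E cells read 11.2 to 13.5 FPM at pH 7.4 (median 12.9 FPM) and 1.62 to 5.05 FPM at pH 6.0 (median 3.28 FPM), a log2 fold change of −1.94 ± 0.18 SE (adjusted p = 2.86e-09). NRK-49F cells read 144 to 200.3 FPM at pH 7.4 (median 170.4 FPM) and 306, 324, 386, 397 and 362 FPM at pH 6.0, a log2 fold change of 1.06 ± 0.16 SE (adjusted p = 2.14e-05). Neither line showed overlap between the pH values. The difference between both changes was −3.01 ± 0.24 SE on the log2 scale (adjusted p = 1.60e-09).

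Mmp28 fell in both lines. Its range went from 49.1 to 85.8 FPM to 37.3 to 66.6 FPM in NRK-52E cells, which overlapped (log2 fold change −0.53, adjusted p = 0.00322), and from 23.7 to 30.4 FPM to 12.6 to 19.5 FPM in NRK-49F cells, which did not (log2 fold change −0.80, adjusted p = 0.000465). The changes did not pass the test of their difference (0.28 ± 0.21 SE, adjusted p = 0.321). Mmp23 was tested but its mean stayed between 0.606 and 0.724 FPM in all 4 conditions, and no comparison called it.

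Mmp12, the macrophage metalloelastase, was below the filter. It had 0 counts in all NRK-52E samples, 0 to 9 counts in NRK-49F samples at pH 7.4 and 4 to 36 counts at pH 6.0, where its mean was 0.717 ± 0.392 FPM (SD, n = 5) against 0.159 ± 0.167 FPM (SD, n = 6). It was not tested. Mmp12 carries the AP-1 motif and TATAAA shown above, as do Mmp1, Mmp3, Mmp7, Mmp10 and Mmp13. Mmp1 and Mmp7 did not exceed 8 counts and 1 count in any sample. Whether these motifs have a part in the levels of any of these genes was not tested.

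Membrane-type MMPs act at the cell surface. Mmp14, which activates the Mmp2 proenzyme there, read 99.8 to 142 FPM at pH 7.4 and 93.7 to 112 FPM at pH 6.0 in NRK-52E cells. This small fall (log2 fold change −0.27 ± 0.11 SE, adjusted p = 0.0377) was not called with RLE scaling (adjusted p = 0.0783) or DESeq2 (adjusted p = 0.0769). NRK-49F cells read 256 to 362 FPM and 193 to 333 FPM, and the change was not called (log2 fold change −0.17, adjusted p = 0.286). Mmp2 and its surface activator thus differed in their calls in NRK-49F cells, while a test of the difference between both genes was not made.

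Mmp24 fell in both lines, and further in NRK-52E cells. These read 25.9 to 47.5 FPM at pH 7.4 and 6.86 to 13.0 FPM at pH 6.0 (log2 fold change −1.77 ± 0.16 SE, adjusted p = 2.46e-09). NRK-49F cells read 20.7 to 31.5 FPM and 12.1 to 20.6 FPM (log2 fold change −0.63 ± 0.17 SE, adjusted p = 0.00625). The fall was not called in either sample group alone, with log2 fold changes of −0.56 in group 4 (adjusted p = 0.192) and −0.70 in group 6 (adjusted p = 0.0518). The difference between the lines was −1.13 on the log2 scale (adjusted p = 0.000385).

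Mmp16 was a gene of NRK-49F cells, where it fell from 14.5 to 19.2 FPM to 5.50 to 10.9 FPM (log2 fold change −1.01 ± 0.27 SE, adjusted p = 0.00662). NRK-52E samples held 2 to 27 counts at pH 7.4, the 27 in sample A021, and at most 2 counts at pH 6.0. This fall was called, also without the 3 samples (adjusted p = 0.00959), but the difference between the lines was then not (adjusted p = 0.115).

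Mmp15 moved in opposite directions in the sample groups of NRK-52E cells. In NRK-52E cells at pH 7.4 all 6 samples read 3.58 to 4.95 FPM. At pH 6.0 the samples of group 1 read 1.91, 1.58 and 2.42 FPM, below the control range, and those of group 3 read 17.8, 14.3 and 11.3 FPM, above it. The mean over both groups, 8.22 ± 7.15 FPM (SD, n = 6), did not pass the test (log2 fold change 1.01 ± 0.47 SE, adjusted p = 0.0654). Within group 1 the log2 fold change was −0.94 (adjusted p = 0.00339) and within group 3 it was 1.93 (adjusted p = 2.86e-05). NRK-49F cells held 0.200 to 2.26 FPM of Mmp15. The GPI-anchored MMPs, Mmp17 and Mmp25, did not exceed 23 and 7 counts and were not tested.

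The sample groups were compared further in a model with 8 conditions, added after the data were seen. In NRK-52E cells the change at pH 6.0 differed between groups 3 and 1 in 5 of 28 members, beside 10.6% of all genes tested. These were Mmp15 (difference 2.88 ± 0.49 SE on the log2 scale), Mmp11 (−1.19), Mmp19 (−1.09), Adamts10 (−0.80) and Adamts2 (−0.69). Mmp11, Mmp19 and Adamts2 fell in both groups and further in group 3. Adamts10, a protease associated with fibrillin microfibrils, read 635 to 788 FPM at pH 7.4 and 985 to 1008 FPM at pH 6.0 in group 1, but 508 to 601 FPM and 437 to 454 FPM in group 3, and over both groups it was not called (log2 fold change 0.18, adjusted p = 0.431). In NRK-49F cells 0 of 28 members and 0% of all genes differed between groups 6 and 4 by edgeR's adjusted p, with 3 members and 596 genes at an unadjusted p under 0.05.

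**Figure D5:**
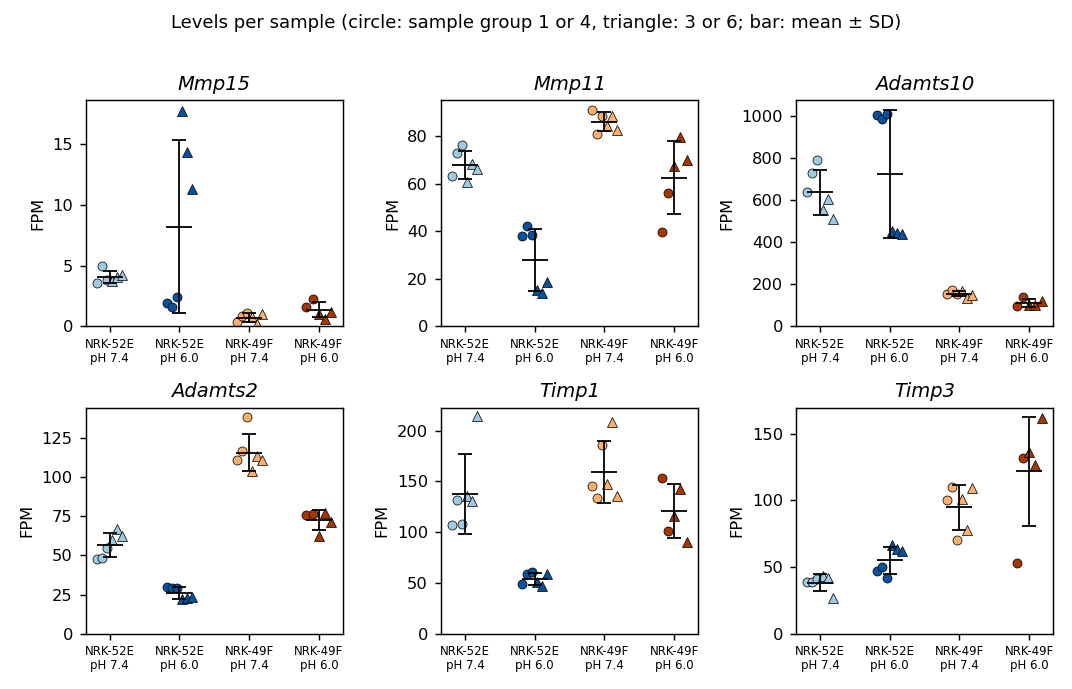
Levels of 6 members in FPM (y axis, linear, a scale of its own for each gene) in each sample of NRK-52E and NRK-49F cells at both pH values, with the mean ± SD. Circles are sample groups 1 and 4, triangles 3 and 6. The triangles and circles of NRK-52E cells at pH 6.0 lie apart for Mmp15 (11.3 to 17.8 against 1.58 to 2.42 FPM), Mmp11, Adamts10, Adamts2 and Timp3.

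The ADAMTS proteases that cut aggrecan and versican, large proteoglycans of the matrix, moved in different directions. Adamts4 (ENSRNOG00000003538, chromosome 13), or aggrecanase-1, read 3.25 to 4.20 FPM in NRK-49F cells at pH 7.4 (median 3.82 FPM) and 17.9, 19.8, 16.8, 16.7 and 17.3 FPM at pH 6.0. The 4.63-fold higher mean (log2 fold change 2.21 ± 0.23 SE, adjusted p = 1.45e-07) was the second largest rise among the tested members of this line, and it was called in each sample group alone. NRK-52E cells held 3 to 20 counts of Adamts4 at pH 7.4 and at most 3 at pH 6.0, a fall that was called with and without the 3 samples (adjusted p = 8.03e-05 and 0.000273) but lay near the floor.

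Adamts5, or aggrecanase-2, went the other way in NRK-49F cells. It fell from 4.80 to 8.27 FPM (median 5.16 FPM) to 1.63, 3.35, 2.19, 1.84 and 2.33 FPM (log2 fold change −1.38 ± 0.28 SE, adjusted p = 0.000865). In NRK-52E cells 1 of 12 samples held Adamts5, with 2 counts.

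Adamts9 (ENSRNOG00000023257, chromosome 4), which cuts versican, had the largest fall in NRK-49F cells among the tested members. At pH 7.4 it ranged from 39.1 to 74.1 FPM with a median of 63.4 FPM, and at pH 6.0 it read 4.23, 14.3, 13.9, 13.9 and 24.4 FPM (log2 fold change −2.05 ± 0.39 SE, adjusted p = 0.000498). In NRK-52E cells 24 counts in sample A021 and at most 2 counts elsewhere passed the test as a fall (adjusted p = 0.0328), which was not called without A021 (adjusted p = 0.293). The level in NRK-49F cells at pH 6.0 was at least 96.3-fold above the floor of NRK-52E cells.

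Adamts1, another versican-cutting enzyme, was not called in either line. NRK-52E cells read 13.9 to 27.3 FPM at pH 7.4 and 14 to 31.4 FPM at pH 6.0, where group 1 read 26.7 to 31.4 FPM and group 3 read 14 to 15.3 FPM. NRK-49F cells read 118 to 161 FPM and 110.2 to 211 FPM. Adamts8, Adamts15 and Adamts20 were not tested, with at most 18, 22 and 5 counts in a sample.

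Adamts2, Adamts3 and Adamts14 remove the amino-terminal propeptide of fibrillar procollagens. Adamts2, the main enzyme of this kind, fell in both lines without overlap. It went from 47.9 to 66.8 FPM (median 57.6 FPM) to 22.1 to 29.6 FPM (median 26.4 FPM) in NRK-52E cells (log2 fold change −1.12 ± 0.10 SE, adjusted p = 1.68e-09). NRK-49F cells went from 104 to 139 FPM (median 112 FPM) to 75.9, 76.8, 62.2, 77.4 and 71.2 FPM (log2 fold change −0.67 ± 0.10 SE, adjusted p = 2.86e-05). The fall was larger in NRK-52E cells by 0.45 on the log2 scale (adjusted p = 0.0159 for the difference).

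Adamts3 and Adamts14 divided the lines at pH 7.4. Adamts3 read 2.60 to 13.4 FPM in NRK-52E cells at pH 7.4 and 4.03 to 16.9 FPM at pH 6.0, and at most 9 counts in an NRK-49F sample. Adamts14 read 4.33 to 6.27 FPM in NRK-49F cells at pH 7.4 and 2.45, 4.27, 5.19, 4.51 and 5.56 FPM at pH 6.0, while NRK-52E samples held at most 1 count at pH 7.4. Its rise in NRK-52E cells (adjusted p = 0.0416) rested on 8 counts in sample A026, and without that sample the adjusted p was 0.834. No fold is given for this rise, since the mean of both groups lay under the floor, and the difference from NRK-49F cells rested on the same counts.

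Of the other ADAMTS genes, 4 of 6 tested fell and 1 rose in NRK-52E cells, beside 36.6% lower and 24.7% higher of all genes. In NRK-49F cells 0 were called, beside 14.5% higher and 14.4% lower of all genes, and 6 genes are too few for a contrast. With the sample group as a term, 3 were called there, Adamts6, Adamts7 and Adamts10, beside 16.6% higher and 16.7% lower. Adamts7 and Adamts12, both known to cut cartilage oligomeric matrix protein, were among those that fell in NRK-52E cells. Adamts7 read 8.60 to 17.2 FPM at pH 7.4 (median 13.1 FPM) and 1.41 to 4.70 FPM at pH 6.0 (median 2.64 FPM) in NRK-52E cells (log2 fold change −2.18 ± 0.24 SE, adjusted p = 3.11e-08). In NRK-49F cells it read 45.6 to 56.3 FPM and 57.6, 81.3, 71.8, 65.4 and 81.6 FPM. These ranges did not overlap, but the change was not called in the joint fit (log2 fold change 0.46 ± 0.21 SE, adjusted p = 0.111) and was called with the sample group as a term (adjusted p = 0.00222) and with NRK-49F samples alone (adjusted p = 0.00476). The difference between the lines was −2.65 ± 0.32 SE (adjusted p = 5.72e-07).

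Adamts12 fell in NRK-52E cells from 0.679 to 1.26 FPM to 0.157 to 0.495 FPM (log2 fold change −1.40, adjusted p = 0.000141) and read 8.71 to 12.1 FPM and 8.62 to 16.7 FPM in NRK-49F cells. Adamts6 fell from 1.75 to 7.44 FPM to 0.524 to 2.02 FPM in NRK-52E cells (log2 fold change −2.07, adjusted p = 1.33e-05) and read 8.12 to 16.4 FPM and 5.40 to 8.96 FPM in NRK-49F cells, which was called with the sample group as a term (log2 fold change −0.63, adjusted p = 0.0132). Adamts17 fell from 1.09 to 4.15 FPM to 0 to 0.681 FPM in NRK-52E cells (log2 fold change −2.82, adjusted p = 1.41e-05) and read 0.70 to 1.96 FPM and 0.366 to 1.28 FPM in NRK-49F cells. For all 3 genes the difference between the lines passed the test, that of Adamts6 not without the 3 samples (adjusted p = 0.0775).

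Adamts13, the protease of von Willebrand factor, was higher at pH 6.0 in NRK-52E cells, which went from 10.4 to 15.8 FPM (median 12.5 FPM) to 16.6 to 22.4 FPM (median 17.8 FPM), with no overlap (log2 fold change 0.55 ± 0.11 SE, adjusted p = 0.000111). NRK-49F cells read 17.1 to 24.3 FPM and 23 to 29.5 FPM, which was not called (log2 fold change 0.24, adjusted p = 0.113), and the difference between the lines was not called either (adjusted p = 0.110). Adamts10 read 136 to 169 FPM in NRK-49F cells at pH 7.4 and 96.6, 138, 98.1, 99.1 and 119 FPM at pH 6.0 (log2 fold change −0.48, adjusted p = 0.0860). With the sample group as a term this fall was called (adjusted p = 0.00625), as was its difference from the change in NRK-52E cells (0.55 on the log2 scale, adjusted p = 0.0133). It was also called with NRK-49F samples alone (adjusted p = 0.00300) and in sample group 6 alone (adjusted p = 0.0255), but not in group 4 alone (adjusted p = 0.213). Adamts16, Adamts18 and Adamts19 were not tested, with at most 7, 0 and 4 counts in a sample.

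The 2 tested inhibitors, Timp1 and Timp3, moved apart in NRK-52E cells. Timp1 (ENSRNOG00000010208, chromosome X), a secreted inhibitor of most soluble MMPs, read 107 to 214 FPM at pH 7.4 (median 131 FPM) and 47.4 to 60.8 FPM at pH 6.0 (median 54.8 FPM), with no overlap (log2 fold change −1.34 ± 0.16 SE, adjusted p = 1.33e-07). The 214 FPM were those of sample A035, and the other 5 control samples read 107 to 136 FPM. NRK-49F cells read 134 to 209 FPM (median 146 FPM) and 154, 101, 115, 143 and 90.8 FPM, which overlapped and was not called (log2 fold change −0.40 ± 0.17 SE, adjusted p = 0.0717). The fall in NRK-52E cells was larger by 0.94 ± 0.23 SE on the log2 scale (adjusted p = 0.00185 for the difference).

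Timp3, which binds to the matrix and also inhibits ADAMTS proteases, rose in NRK-52E cells, whose control samples read 26.4 to 43.1 FPM (median 39.9 FPM), to 41.5 to 66.6 FPM (median 56 FPM). This change (log2 fold change 0.52 ± 0.19 SE, adjusted p = 0.0205) was not called without sample A035, which had the 26.4 FPM (adjusted p = 0.0527), nor without the 3 samples with most Pdgfra and Vcam1 (adjusted p = 0.0588). At pH 6.0 sample group 1 read 41.5 to 50.1 FPM and group 3 read 61.8 to 66.6 FPM. The change itself did not differ between these groups by edgeR's adjusted p (0.350). NRK-49F cells read 70.2 to 110.4 FPM and 53, 132, 136, 127 and 162 FPM (log2 fold change 0.36, adjusted p = 0.177). The 53 FPM were those of sample A042, without which the rise was called (log2 fold change 0.55, adjusted p = 0.00767). Timp4 had 1 count in 1 of 23 samples. No protein-coding gene of the count table carried the symbol Timp2, so this inhibitor was not examined.

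In all, 2 members, Mmp8 and Adamts18, had no count in any sample. A further 3, Mmp7, Mmp20 and Timp4, had at most 3 counts in every sample. The remaining 12 untested members exceeded 3 counts in at least 1 sample and are named with their highest counts above, except Mmp21 and Mmp27 with at most 4 counts each. NRK-52E cells held 18 of the 45 members at 3 counts or fewer in every sample at pH 7.4 and 21 at pH 6.0, against 9 at each pH in NRK-49F cells.

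Genes that act on these enzymes were described from lists, whose counts are to be read beside the 24.7% higher and 36.6% lower of all genes in NRK-52E cells and the 14.5% and 14.4% in NRK-49F cells. Of the proenzyme activators, 2 of 5 tested genes fell in NRK-52E cells, Pcsk5 (log2 fold change −1.71) and Plat (−1.65), while in NRK-49F cells 1 rose and 3 fell. The riser was Furin, the convertase that trims several membrane-type MMPs and ADAMTS proenzymes, which went from 165 ± 11.9 FPM (SD, n = 6) to 247 ± 25.3 FPM (SD, n = 5; log2 fold change 0.58 ± 0.11 SE). Plat, the tissue plasminogen activator, fell there too (−0.58), as did Pcsk7 (−0.40). The list of other inhibitors, clearance receptors and surface partners had 9 tested genes, of which 2 rose and 3 fell in NRK-52E cells, while 1 rose and 2 fell in NRK-49F cells. Reck, a membrane-anchored MMP inhibitor, fell in both (−1.93 and −0.73), and Cd44, a hyaluronan receptor that binds MMPs, rose in NRK-49F cells from 153 ± 11.3 to 322 ± 20.6 FPM (SD, n = 6 and n = 5; log2 fold change 1.07 ± 0.23 SE). Cd44 was also called higher in NRK-52E cells, at means of 1.44 and 2.52 FPM (log2 fold change 0.73, adjusted p = 0.0445). Its difference between the lines was not called (adjusted p = 0.519). Cd151 fell in NRK-52E cells (−1.04) and Bsg, an inducer of MMPs, in NRK-49F cells (−0.56).

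Of 6 tested ADAMTS-like and procollagen-processing genes, 1 rose and 3 fell in NRK-52E cells, and 0 rose and 2 fell in NRK-49F cells. Pcolce, which enhances the carboxy-terminal trimming of procollagen, fell in both (−0.87 and −0.52), as did Adamtsl4 (−0.81 and −0.71). Adamtsl3 fell in NRK-52E cells (−1.54). Of 11 other shedding or matrix metalloproteinases tested, 1 rose and 9 fell in NRK-52E cells, and 2 rose and 3 fell in NRK-49F cells, beside the same shares of all genes as above. Adam8 rose in both, with means ± SD of 17.6 ± 5.06 FPM and 81.4 ± 11.9 FPM in NRK-52E cells (n = 6 per pH, log2 fold change 2.21 ± 0.25 SE) and of 5.38 ± 3.08 FPM and 14.3 ± 3.84 FPM in NRK-49F cells (n = 6 and n = 5, log2 fold change 1.40 ± 0.27 SE). Bmp1, the procollagen C-proteinase, fell in both lines (−1.25 in NRK-52E and −0.51 in NRK-49F cells, adjusted p = 1.09e-06 for the difference). Adam33 fell in NRK-52E cells (−1.11) and rose in NRK-49F cells (0.82), and this difference passed the test too (−1.94, adjusted p = 4.37e-07). Adam12, Adam19 and, of the surface partners, Itgb3 averaged at most 0.178 FPM in NRK-52E cells at pH 7.4 and 0 FPM at pH 6.0, where their falls were called close to the floor.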

How the data were processed

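Poly(A) RNA of 23 rat samples was used. The deposited table holds raw counts per Ensembl gene, which the authors made by mapping read pairs with HISAT2 2.1.0 and counting exon reads with featureCounts, multi-mapping reads included and with no strand setting given in the sources used here. The genome is rn7 in the paper's methods and rn6 in the submitters' processing notes. A further 13 per-sample columns, which match no sample label, were not used. Groups follow the labels' cell line and pH, and replicate codes pair no samples.

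All 23 samples entered a single model with 4 conditions in edgeR 4.0.16 (R 4.3.3), with filterByExpr (minimum count 10, minimum total 15), TMM scaling, the quasi-likelihood test and Benjamini-Hochberg adjustment over 14777 genes (threshold 0.05). The standard error is the absolute log2 fold change divided by the square root of F. A fold against samples that all had 0 counts is a lower bound, computed against 3 counts per library. The standard error includes the spread between samples, and SD values describe that spread. Bounds and floors take no account of it. All members are named, with values by sample where the mean reached 1 FPM in a condition. Of the related genes, those called with a mean of at least 10 FPM are named, at most 3 per list and line. The steps were tested on simulated data. Members and lists were chosen with earlier results of these data known.

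Alternatives changed the scaling (RLE), tool (DESeq2 1.42.0, or both tools), filter, gene set, depth, fold threshold (absolute log2 fold change over 1) and samples (each line, single sample groups, the sample group as a term, each sample left out). Leaving out 3 NRK-52E samples and the model by sample group were added after the data were seen. Promoters are from RefSeq (build GRCr8).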

Additional observations from a re-analysis of the deposited data

Results flagged for a closer look

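Single samples stood apart from the rest of their group, by the gap to the nearest other sample, in 7 of 96 groups of values examined, where chance alone flags about 1 in 20 groups. Sample A021 (NRK-52E, pH 7.4) was the highest for Mmp16 with 0.756 FPM against 0.0910 to 0.164 FPM in the others, and for Adamts9 with 0.672 FPM against 0 to 0.108 FPM. Sample A035 of the same condition was the lowest for Adamts1 (13.9 FPM against 23.6 to 27.3 FPM) and Timp3 (26.4 FPM against 38.4 to 43.1 FPM) and the highest for Timp1 (214 FPM against 107 to 136 FPM). Sample A026 (NRK-52E, pH 6.0) was the highest for Adamts14 with 0.233 FPM against at most 0.0531 FPM, and sample A041 (NRK-49F, pH 7.4) for Adamts2 with 139 FPM against 104 to 117 FPM.

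The change at pH 6.0 differed between sample groups 3 and 1 of NRK-52E cells by 2.88 on the log2 scale for Mmp15, by −1.19 for Mmp11, by −1.09 for Mmp19, by −0.80 for Adamts10 and by −0.69 for Adamts2, each past edgeR's adjusted threshold. Apart from the replicate code, the sample group is the only label that separates these samples, and its part in the differences cannot be told apart from that of anything else that changed with it.

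The change differed between NRK-52E and NRK-49F cells in 14 members by the test of the difference itself. On the log2 scale, NRK-52E minus NRK-49F, the differences of the Mmp genes were −6.96 for Mmp3, −5.27 for Mmp2, −3.01 for Mmp19, −2.70 for Mmp16, −1.13 for Mmp24 and −0.83 for Mmp11. Those of the Adamts genes were −4.90 for Adamts4, −2.65 for Adamts7, −2.27 for Adamts17, −1.61 for Adamts12, −1.41 for Adamts6, −0.45 for Adamts2 and 2.72 for Adamts14. For Timp1 the difference was −0.94. The values of Mmp2, Mmp3, Mmp16, Adamts4 and Adamts14 involve a condition of NRK-52E cells at or near 3 counts per library and depend on the prior count of the fit. Without the 3 NRK-52E samples with most Pdgfra and Vcam1, the difference of Mmp3 was −2.87 and no longer called (adjusted p = 0.0584), and that of Mmp2 was −2.02 (adjusted p = 0.0411). That of Adamts14 rested on 8 counts in sample A026, ranged from 0.56 to 3.94 when 1 sample was left out and lost its call in 15 of 23 such fits, so its size cannot be read as a fold.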

How the results depend on the processing

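There were 37 alternatives, of which the one that required both tools gave counts only and no single values. Single values without an adjusted p were left out, so a call lost in that way is not included below. Of 3575 single values of members recomputed, 3401 kept their direction and their side of the threshold, 121 lost the call, 50 gained it and 3 turned. The values that turned were Mmp15 (−0.94) and Adamts1 (0.32) in NRK-52E cells of sample group 1 alone, and Adamts9, which was 0 without the 3 NRK-52E samples with most Pdgfra and Vcam1. Counts of calls moved by over 1.5 times in these cases. When an absolute log2 fold change over 1 was required, a stricter rule, NRK-52E cells had 0 members higher and 10 lower. Of all 14777 genes, 560 were higher and 1418 lower. NRK-49F cells had 2 members higher and 0 lower, beside 142 and 152 of all genes. The change differed between the lines in 5 members, and in 260 genes upward and 706 downward. Without the 3 NRK-52E samples 1 member was higher, beside 20.8% of all genes, and 9 differed between the lines, beside 34.3%. With NRK-52E samples alone 10 of 18 tested members were lower, beside 4258 of 13377 genes. In sample group 3 alone also 10 of 18 were lower, beside 4255 of 13444 genes. In sample group 6 alone 11 of 29 tested members were higher in NRK-49F cells, beside 1088 of 13812 genes. The cause of these last moves was not tested. Leaving out each sample in turn gave 1 (without A035) to 4 members higher and 14 to 16 lower in NRK-52E cells, 5 to 7 higher and 6 to 7 lower in NRK-49F cells, 12 to 14 that differed between the lines, and 19 to 20 higher and 5 to 6 lower in NRK-49F than in NRK-52E cells at pH 7.4. No paired analysis was possible because replicate codes are not shared between groups. At 3 counts, levels under 0.0839 to 0.203 FPM could not be seen.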
